A study of Mus musculus with 4 samples.

Results

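The proteasome genes considered here are the 49 genes of the deposited table whose symbol begins with *Psma*, *Psmb*, *Psmc*, *Psmd*, *Psme*, *Psmf* or *Psmg* followed by a digit, pseudogenes left out, of 12067 genes in all. Of these, 47 encode subunits, assembly chaperones or regulators of the proteasome. The other 2, *Psmc3ip* and *Psme2b*, matched by symbol and were kept apart from the proteasome roles: *Psmc3ip* encodes the recombination factor Hop2, and *Psme2b* is a copy of *Psme2*, with 99.37% identity over 794 of its 837 bases. The rule itself reads only symbols. *Psmb11*, the thymus-specific β subunit, had no row in the table.

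The measurements were 3′ mRNA counts (Quant-seq) of KL cells, the cKit+Sca-1-Lin- myeloid progenitor gate of the bone marrow, in 4 libraries. Whole bone marrow of male donor mice was placed in sub-lethally irradiated female *Ptprca* recipients, a CD45.1 congenic strain, with the sexes as in the study's methods. Donor-derived CD45.2+ KL cells were sorted 20 weeks later. The 2 *Bcor*ΔE9-10 libraries carry the genotype label scl-Cre-ERT +; Bcorfl/y. Their Cre is tamoxifen-inducible and driven in haematopoietic stem cells by *HSC-SCL-Cre-ERT*, and it removes exons 9 and 10 of the X-linked *Bcor* gene, which leaves a truncated protein without its PUFD domain. The 2 *Bcor*WT libraries carry the label Bcorfl/y, that is, the same floxed allele without the Cre. Donors of both genotypes were tamoxifen-treated, at 3 to 6 months of age per the study's methods. The sources used here do not say whether each library came from a separate recipient, so the p-values below measure the spread between these libraries, which may in part be technical.

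The proteasome degrades proteins that carry ubiquitin chains. Its 20S core is a barrel of α and β subunits in stacked rings, and the β5, β1 and β2 subunits (*Psmb5*, *Psmb6* and *Psmb7*) cut the substrate. In blood cells and after interferon, newly built cores can take up β5i, β1i and β2i (*Psmb8*, *Psmb9* and *Psmb10*) in their place, which gives the immunoproteasome that supplies peptides for MHC class I. The 19S particle caps the core. It holds a ring of ATPases (*Psmc* genes) that unfold the substrate and non-ATPase subunits (*Psmd* genes) that bind ubiquitin and remove it, and dedicated chaperones assemble both parts.

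The libraries held between 3825290 and 6253101 counts, so that 3 counts corresponded to between 0.489 and 0.876 CPM, the unit of level used here, which is the count relative to the TMM-scaled size of its library. A single transcript, *Gm42418*, took 16.3% and 14.3% of the counts in the *Bcor*ΔE9-10 libraries and 27.9% and 1.43% in the *Bcor*WT libraries. All 6 markers listed for the KL gate had rows, with summed levels of 7539 to 10289 CPM in *Bcor*ΔE9-10 and 10327 to 10460 CPM in *Bcor*WT, and *Ly6a*, which encodes Sca-1, had between 0 and 20 counts. None of 6 T-cell markers and 2 of 6 B-cell markers had a row. All 7 late neutrophil markers did, and their summed level was 63030 and 154255 CPM in the *Bcor*ΔE9-10 libraries against 93870 and 141455 CPM in the *Bcor*WT libraries. The summed level of 3 of 6 monocyte and macrophage markers was 477 and 547 CPM in the *Bcor*ΔE9-10 libraries against 603 and 1429 CPM in the *Bcor*WT libraries (without rows for *Adgre1*, *C1qa* and *C1qb*). Most of this sum was *Ly6c2*, with 429 and 491 against 550 and 1365 CPM. *Csf1r* was also lower in *Bcor*ΔE9-10, while *Cd14* was higher, with 19.6 and 28.7 against 16.6 and 11.1 CPM. *Xist*, the RNA of the inactive X of female cells, had 13 and 24 counts in the *Bcor*ΔE9-10 libraries against 64 and 101 in the *Bcor*WT libraries. Marker sums of eosinophils, basophils and mast cells (5 of 6) were 222, 171, 403 and 436 CPM. Values are listed here and throughout as *Bcor*ΔE9-10 replicates 1 and 2 and then *Bcor*WT replicates 1 and 2. All 5 of these genes had log2 fold changes below 0, with a median of -1.07. Of them, 3 had an unadjusted p under 0.05 (edgeR), beside 3.07% of all genes lower at that threshold, and 0 passed after adjustment. Marker sums of megakaryocytes (3 of 5) were 106, 138, 102 and 265 CPM. All 3 of these genes had log2 fold changes below 0, with a median of -0.57. Of the 3, 1 had an unadjusted p under 0.05 (edgeR), beside the same 3.07%, and 0 passed after adjustment. The 4 globin genes with rows, markers of erythroid cells, summed to 73.0, 69.8, 19.3 and 45.9 CPM, with a median log2 fold change of 1.10, and all 4 were higher in both *Bcor*ΔE9-10 libraries than in both *Bcor*WT libraries, beside 16.8% of all genes. The part of these other transcripts in the results below was not tested.

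The 4 promoters below belong to catalytic subunits whose balance within a library is described further on, *Psmb5* with its immunoproteasome partner *Psmb8* and *Psmb6* with its partner *Psmb9*. Each is the 250 bases before the RefSeq transcription start, written 5′ to 3′ on the gene's strand. That start lies inside the longer GENCODE gene span given further on for *Psmb5*, *Psmb8* and *Psmb9*, and just outside it for *Psmb6*. Capitals mark the antioxidant response element core TGACNNNGC in *Psmb5* and *Psmb6*, TTCNNNGAA, the letters of a STAT site, in *Psmb8*, and the reverse complement of the NF-Y motif CCAAT in *Psmb9*.
*Psmb5* (GRCm38.p6, chr14:54617996-54618245, minus strand): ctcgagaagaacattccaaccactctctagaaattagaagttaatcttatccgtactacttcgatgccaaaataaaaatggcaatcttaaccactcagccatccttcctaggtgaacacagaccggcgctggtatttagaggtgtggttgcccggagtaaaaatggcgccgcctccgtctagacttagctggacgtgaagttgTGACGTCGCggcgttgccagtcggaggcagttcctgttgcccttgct
*Psmb8* (GRCm38.p6, chr17:34197945-34198194, plus strand): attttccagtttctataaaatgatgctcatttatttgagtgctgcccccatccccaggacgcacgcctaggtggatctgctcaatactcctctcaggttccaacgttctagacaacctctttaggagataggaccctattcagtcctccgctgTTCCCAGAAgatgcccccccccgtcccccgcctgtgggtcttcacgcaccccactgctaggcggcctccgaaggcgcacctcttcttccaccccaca
*Psmb6* (GRCm38.p6, chr11:70525107-70525356, plus strand): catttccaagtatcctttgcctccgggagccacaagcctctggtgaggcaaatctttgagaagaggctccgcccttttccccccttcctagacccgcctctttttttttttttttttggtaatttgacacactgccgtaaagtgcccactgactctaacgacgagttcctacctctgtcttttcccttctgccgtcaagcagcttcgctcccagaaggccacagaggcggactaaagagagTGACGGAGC
*Psmb9* (GRCm38.p6, chr17:34187331-34187580, minus strand): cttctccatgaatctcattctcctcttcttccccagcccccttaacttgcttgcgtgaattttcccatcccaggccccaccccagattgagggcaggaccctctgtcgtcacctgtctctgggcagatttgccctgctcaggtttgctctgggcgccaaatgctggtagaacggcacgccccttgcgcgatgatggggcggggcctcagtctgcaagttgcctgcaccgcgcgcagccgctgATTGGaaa

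The TGACNNNGC match lay at positions -47 to -39 from the start in *Psmb5* and at -9 to -1 in *Psmb6*. The TTCNNNGAA match of *Psmb8* was at -97 to -89, and the CCAAT match of *Psmb9* was at -8 to -4 on the opposite strand. RefSeq held windows for 41 of the 49 genes, 44 windows in all, which were searched on both strands without any position matched by more than 1 motif. TGACNNNGC, the core bound by the proteasome regulators Nfe2l1 and Nfe2l2, stood in 5 of the 44 windows (11.4%: *Psmb5*, *Psmb6*, *Psmc6*, *Psmd9* and *Psmd12*), against 10.2% of all 32851 windows of this length. CCAAT stood in 14 (31.8%) against 33.8% of all windows. TTCNNNGAA, a motif chosen after the data had been examined, stood in 2 (4.55%: *Psmb8* and *Psmg1*) against 7.02%. These shares describe letters in the windows, and binding was not measured.

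No proteasome gene passed the test for a difference between the genotypes. All 49 genes were tested in a fit over the whole table, and at an adjusted p under 0.05 (edgeR, Benjamini-Hochberg over 12067 genes) 0 of them were called, against 2 genes of the table, 0.0166%. Their adjusted p-values lay between 0.945 and 0.996. At an unadjusted p under 0.05, 0 were higher and 0 were lower in *Bcor*ΔE9-10, beside 1.34% and 3.07% of all genes, and the lowest unadjusted p was 0.121, of *Psmd3*. With limma-voom and with DESeq2 the count was likewise 0 of the 49 at an adjusted and at an unadjusted p under 0.05. A smaller number of cells of a type and less of an RNA per cell cannot be told apart in such pooled libraries.

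The differences that were measured were small. The fitted log2 fold change of *Bcor*ΔE9-10 over *Bcor*WT was above 0 for 21 genes and below 0 for 28, from -0.66 (*Psmd3*) to 0.52 (*Psme2b*), with a median of -0.03, the same to 2 decimals as the median over all genes. The median size of the change without its sign was 0.14 for the proteasome genes and 0.33 for all genes. Their median count was also larger, 303 against 97 per library, and a gene with more counts has a smaller counting error. Whether this had a part in the smaller changes was not tested. For 42 of the 49 the change was within 1 standard error (SE) of 0, the SE being 0.30 to 0.78 with a median of 0.33. For 32 of the 49 the 95% interval lay wholly between -1 and 1, that is, within a 2-fold change either way, as it did for 19.7% of all genes. No proteasome gene had a fitted change beyond 2-fold, beside 8.68% of all genes. A change beyond 2-fold could not be set aside for the other 17, among them *Psmb5*, *Psmd2*, *Psmd3*, *Psme3*, *Psme4* and *Psma8*.

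**Figure D1:**
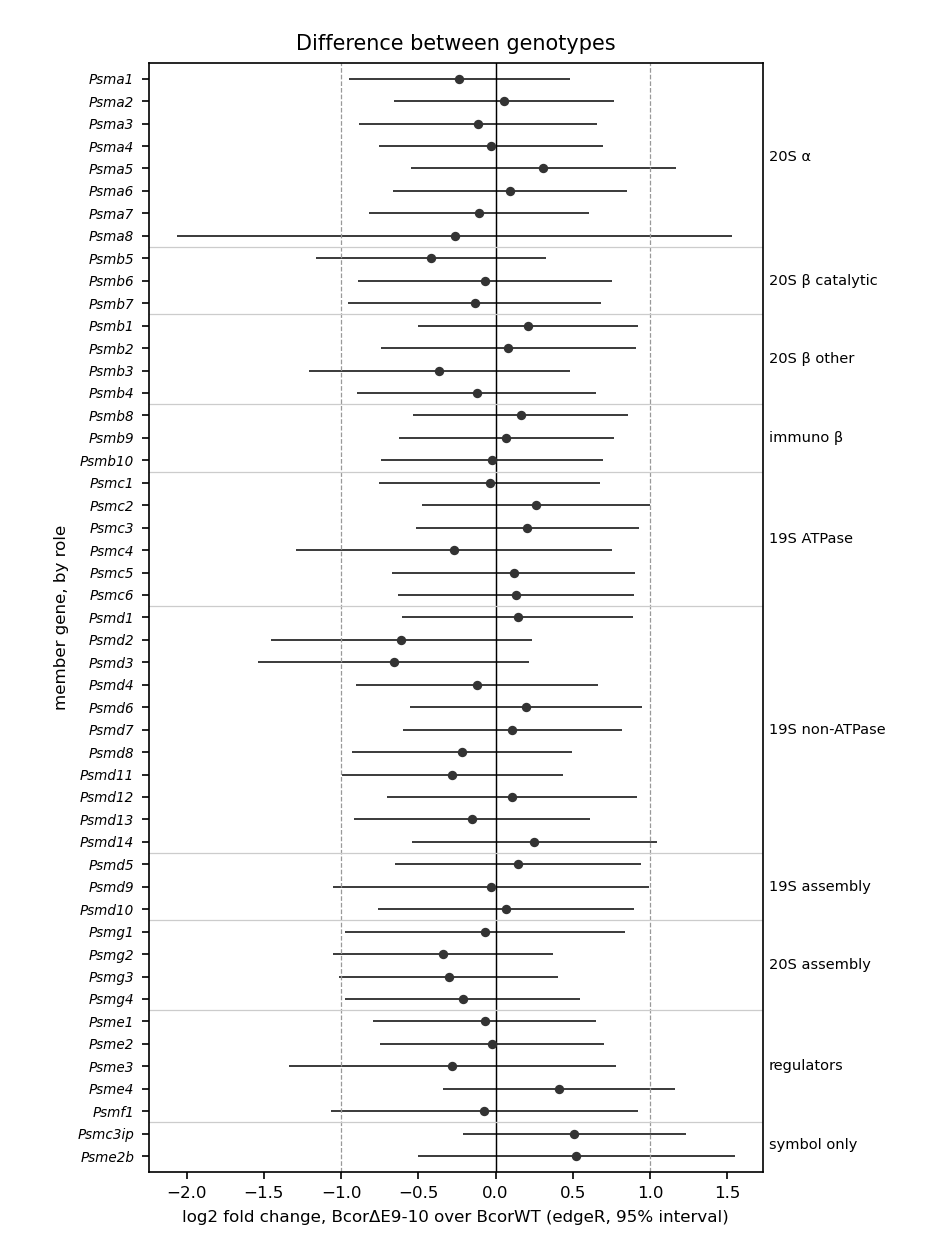
Fitted log2 fold change of *Bcor*ΔE9-10 over *Bcor*WT for each of the 49 genes (x axis, log2 units), ordered by role, with points for the edgeR estimate and lines for its 95% interval. Every interval crosses 0, and the estimates run from -0.66 for *Psmd3* to 0.52 for *Psme2b*.

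In CPM, the 2 *Bcor*ΔE9-10 libraries exceeded both *Bcor*WT libraries for 5 genes (10.2%, beside 16.8% of all genes): *Psmb1*, *Psmb8*, *Psmc3*, *Psme4* and *Psmc3ip*. Both lay below for 10 (20.4%, beside 17.1%): *Psma1*, *Psma7*, *Psmb5*, *Psmd2*, *Psmd3*, *Psmd8*, *Psmd11*, *Psmg2*, *Psmg3* and *Psmg4*. The first share is below the background and the second near it. For the remaining 34 genes the genotypes overlapped.

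**Figure D2:**
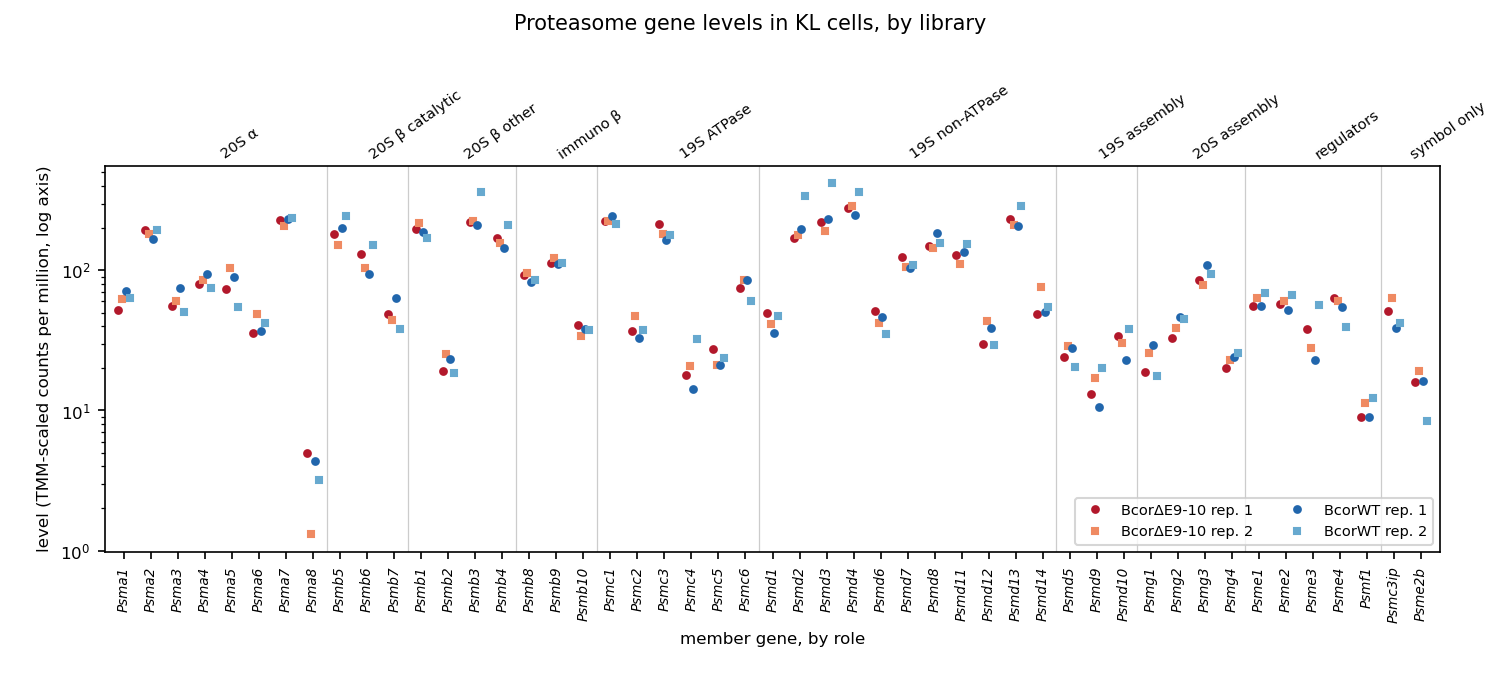
Level of each of the 49 genes in each library (y axis, CPM scaled by TMM factors, log axis), ordered by role, with red points for *Bcor*ΔE9-10 and blue points for *Bcor*WT. Most genes have their 4 points close together, and the *Bcor*WT replicate 2 point stands highest for *Psmd2*, *Psmd3*, *Psmb3* and *Psme3*.

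Among the 3 constitutive catalytic subunits all log2 fold changes were below 0 and none passed the test. *Psmb5* (β5, the chymotrypsin-like subunit, chr14:54614119-54618022) had 988 and 926 counts in the *Bcor*ΔE9-10 libraries against 685 and 1303 in the *Bcor*WT libraries, or 183, 151, 200 and 245 CPM. Both *Bcor*ΔE9-10 levels were below both *Bcor*WT levels, with a log2 fold change of -0.42 (SE 0.32, unadjusted p = 0.231) that was -0.26 without *Bcor*WT replicate 2. *Psmb6* (β1, caspase-like, chr11:70525367-70527858) had 705 and 637 against 324 and 800 counts, or 130, 104, 94.6 and 151 CPM, so that both *Bcor*ΔE9-10 levels lay between the *Bcor*WT levels. Its log2 fold change was -0.07 (SE 0.35). *Psmb7* (β2, trypsin-like, chr2:38588036-38644087) had 264 and 271 against 219 and 204 counts, or 48.8, 44.2, 64.0 and 38.4 CPM, again with *Bcor*ΔE9-10 inside the *Bcor*WT range and a log2 fold change of -0.13 (SE 0.35). *Psmb7* overlaps *Nek6* on the opposite strand, and the sources used here do not state whether the counting used strand. The summed level of the 3 genes was 362 and 299 CPM in the *Bcor*ΔE9-10 libraries against 359 and 434 CPM in the *Bcor*WT libraries.

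The immunoproteasome subunits varied little between libraries. *Psmb8* (β5i, chr17:34197721-34201454) had 500 and 587 counts in the *Bcor*ΔE9-10 libraries against 282 and 456 in the *Bcor*WT libraries, or 92.4, 95.7, 82.4 and 85.8 CPM, with a log2 fold change of 0.16 (SE 0.30, unadjusted p = 0.606). Both *Bcor*ΔE9-10 levels exceeded both *Bcor*WT levels, by a margin smaller than the SE. *Psmb9* (β1i, chr17:34181987-34187764) had 612 and 748 against 378 and 603 counts, or 113, 122, 110 and 113 CPM, with a log2 fold change of 0.07 (SE 0.30). *Psmb9* lies antisense to the peptide transporter gene *Tap1*, which had 342, 397, 154 and 415 counts, and reads of the shared stretch cannot be assigned without strand. *Psmb10* (β2i, chr8:105935735-105938444) had 220 and 208 against 131 and 200 counts, or 40.7, 33.9, 38.3 and 37.6 CPM, with a log2 fold change of -0.03 (SE 0.31). Summed over the 3 genes, the level was 246 and 252 CPM in the *Bcor*ΔE9-10 libraries against 231 and 237 CPM in the *Bcor*WT libraries, a log2 ratio of 0.09.

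Because a ratio of counts inside a library needs no scaling, the immunoproteasome subunit was also expressed as a share of its pair. *Psmb8* made up 33.6% (95% Wilson interval 31.2 to 36.0) and 38.8% (36.4 to 41.3) of *Psmb8* and *Psmb5* counts in *Bcor*ΔE9-10, and 29.2% (26.4 to 32.1) and 25.9% (23.9 to 28.0) in *Bcor*WT. Both *Bcor*ΔE9-10 shares were above both *Bcor*WT shares, with means of 36.2% ± 3.67 and 27.5% ± 2.29 (SD, n = 2 each), a difference of 8.66 percentage points. The exact two-sided permutation p was 0.333, the smallest that 2 libraries against 2 can give, and 1 after Benjamini-Hochberg adjustment over the 3 pairs. The difference was 6.06 to 11.3 points when each library was left out in turn. *Psmb9* made up 46.5% and 54.0% of its pair with *Psmb6* in the *Bcor*ΔE9-10 libraries against 53.8% and 43.0% in the *Bcor*WT libraries, with overlapping genotypes (means 50.2% ± 5.33 and 48.4% ± 7.68, exact permutation p = 0.667). *Psmb10* made up 45.5% and 43.4% of its pair with *Psmb7* in the *Bcor*ΔE9-10 libraries against 37.4% and 49.5% in the *Bcor*WT libraries, where the *Bcor*ΔE9-10 shares lay inside the *Bcor*WT range (44.4% ± 1.44 and 43.5% ± 8.54, exact permutation p = 1). The sign of both latter differences turned when a single library was left out. These intervals cover counting error only, and a 3′ count share is not a share of protein.

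**Figure D3:**
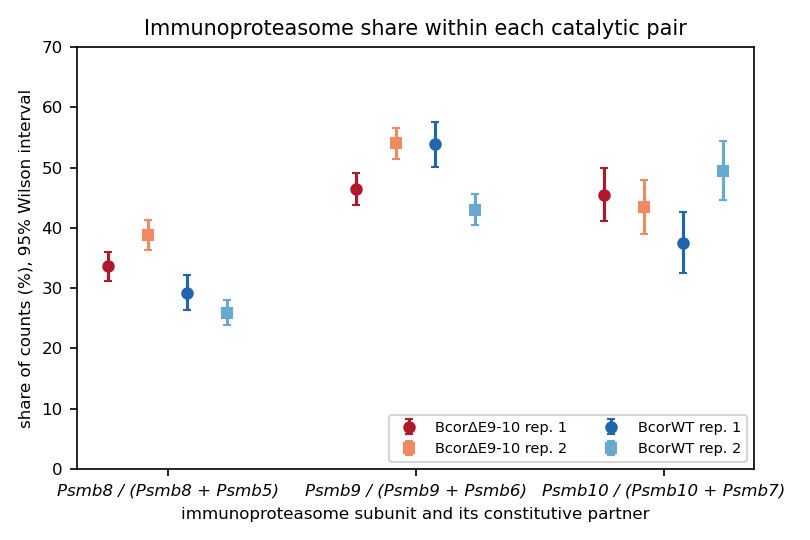
Share of counts (y axis, percent) taken by the immunoproteasome subunit of each catalytic pair in each library, with bars for the 95% Wilson interval. The *Psmb8* shares are 33.6% and 38.8% in the *Bcor*ΔE9-10 libraries against 29.2% and 25.9% in the *Bcor*WT libraries, while the genotypes overlap in the other 2 pairs.

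The remaining core subunits gave no call. Of the 8 α ring genes, 3 had log2 fold changes above 0 and 5 below, with a median of -0.07, and their summed level was 724 and 751 CPM in the *Bcor*ΔE9-10 libraries against 772 and 718 CPM in the *Bcor*WT libraries. *Psma5* (α5) had the highest of these changes, 0.31 (SE 0.37), from 400 and 637 counts in the *Bcor*ΔE9-10 libraries against 306 and 289 in the *Bcor*WT libraries. *Psma8*, the testis form of the α4 subunit, had 27 and 8 against 15 and 17 counts, the lowest mean count of the 49 genes (16.8), and a log2 fold change of -0.27 with an SE of 0.78. The confidence interval of the *Psma8* change ran from -2.06 to 1.53, so a change beyond 2-fold either way could not be set aside. Of the 4 β ring genes without catalytic sites, 2 were above 0 and 2 below. *Psmb3* (β3, chr11:97703399-97713500) had 1199 and 1385 counts in the *Bcor*ΔE9-10 libraries against 726 and 1931 in the *Bcor*WT libraries, or 222, 226, 212 and 363 CPM, so that *Bcor*WT replicate 2 alone stood high and the fitted change was -0.36 (SE 0.36).

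The 6 ATPases of the 19S particle had summed levels of 596 and 580 CPM in the *Bcor*ΔE9-10 libraries against 564 and 547 CPM in the *Bcor*WT libraries, a log2 ratio of 0.08, with 4 genes above 0 and 2 below. *Psmc2* (Rpt1) had the highest change, 0.26 (SE 0.32; 0.074 without *Bcor*ΔE9-10 replicate 2), from 199 and 289 counts in the *Bcor*ΔE9-10 libraries against 112 and 198 in the *Bcor*WT libraries. Its CPM of 36.8, 47.1, 32.7 and 37.3 overlapped. *Psmc4* (Rpt3) had 97 and 128 counts against 49 and 171, a 1.14 difference in log2 CPM between the 2 *Bcor*WT libraries alone.

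The 11 non-ATPase subunits held the 2 lowest changes of the 49. *Psmd3* (Rpn3, a scaffold subunit of the lid, chr11:98682554-98695979) had 1196 and 1177 counts in the *Bcor*ΔE9-10 libraries against 797 and 2227 in the *Bcor*WT libraries, or 221, 192, 233 and 419 CPM. Its log2 fold change was -0.66 (SE 0.38, unadjusted p = 0.121, edgeR adjusted p = 0.945). *Psmd2* (Rpn1, the base subunit that docks ubiquitin-binding proteins, chr16:20651652-20663414) had 928 and 1105 against 675 and 1807 counts, or 172, 180, 197 and 340 CPM, and a log2 fold change of -0.61 (SE 0.37, unadjusted p = 0.133). In both genes *Bcor*WT replicate 1 lay close to the *Bcor*ΔE9-10 libraries and *Bcor*WT replicate 2 lay well above all others. *Psmd4* (Rpn10, a ubiquitin receptor) had the highest mean count of the 49 genes, 1510, with 1496, 1758, 849 and 1938 counts and a log2 fold change of -0.12 (SE 0.34). *Psmd14* (Rpn11, the deubiquitinase of the lid) had the highest change of this group, 0.25 (SE 0.34), from 264, 469, 174 and 289 counts. The summed level of the 11 genes was 1481 and 1435 CPM in the *Bcor*ΔE9-10 libraries against 1479 and 1998 CPM in the *Bcor*WT libraries. The log2 ratio of these sums was -0.25. It was -0.02 when *Bcor*WT replicate 2 was left out and -0.45 when *Bcor*WT replicate 1 was.

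All 4 *Psmg* chaperones of 20S assembly had log2 fold changes below 0. For 3 of them both *Bcor*ΔE9-10 levels lay below both *Bcor*WT levels, as they did for 17.1% of all genes. *Psmg2* (PAC2) had 179 and 238 counts in the *Bcor*ΔE9-10 libraries against 159 and 238 in the *Bcor*WT libraries, or 33.1, 38.8, 46.4 and 44.8 CPM, and a log2 fold change of -0.34 (SE 0.31, unadjusted p = 0.299). *Psmg3* (PAC3) and *Psmg4* (PAC4) had changes of -0.30 (SE 0.31) and -0.21 (SE 0.33), and *Psmg1* (PAC1), which overlapped, had -0.07 (SE 0.39). Their summed level was 157 and 166 CPM in the *Bcor*ΔE9-10 libraries against 209 and 182 CPM in the *Bcor*WT libraries, a log2 ratio of -0.27 that stayed between -0.37 and -0.17 with each library left out. None of the 4 passed the test. *Pomp*, a core maturation factor gene outside the symbol rule, had 212, 137, 159 and 193 CPM, which overlapped between genotypes. Its log2 fold change was -0.01 (SE 0.35). The 3 chaperones of the 19S base, *Psmd5*, *Psmd9* and *Psmd10* (gankyrin), overlapped between genotypes and had changes of -0.03 to 0.14.

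Among the regulators that bind the ends of the core, *Psme4* (PA200, a cap that works without ATP, chr11:30771726-30880361) had the highest change. It had 344 and 373 counts in the *Bcor*ΔE9-10 libraries against 187 and 208 in the *Bcor*WT libraries, or 63.6, 60.8, 54.6 and 39.1 CPM, with both *Bcor*ΔE9-10 levels above both *Bcor*WT levels and a log2 fold change of 0.41 (SE 0.32, unadjusted p = 0.241), which became 0.19 when *Bcor*WT replicate 2 was left out and 0.66 when *Bcor*WT replicate 1 was. *Psme1* and *Psme2*, the interferon-inducible PA28 subunits, had log2 fold changes of -0.07 (SE 0.31) and -0.02 (SE 0.31). *Psme3* (PA28γ, the nuclear activator) had 205, 172, 78 and 302 counts, so that the 2 *Bcor*WT libraries were the lowest and the highest, 1.30 apart in log2 CPM. *Psmf1* (PI31) had 49, 69, 31 and 65 counts and a log2 fold change of -0.07 (SE 0.43).

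The 2 genes kept apart from the proteasome roles, marked as symbol only in the plots, had among the highest changes of the 49. *Psmc3ip* (chr11:101091823-101095436) had 278 and 387 counts in the *Bcor*ΔE9-10 libraries against 132 and 222 in the *Bcor*WT libraries, or 51.4, 63.1, 38.5 and 41.8 CPM, a log2 fold change of 0.51 (SE 0.31, unadjusted p = 0.141) with no overlap between genotypes. It overlaps *Mlx* on the opposite strand. *Psme2b* (chr11:48945354-48946190) had 87, 118, 56 and 45 counts and a log2 fold change of 0.52 (SE 0.44, unadjusted p = 0.272), and *Bcor*WT replicate 1 lay among the *Bcor*ΔE9-10 libraries. The change of *Psme2b* was 0.11 when *Bcor*WT replicate 2 was left out and 1.06 when *Bcor*WT replicate 1 was. Reads of *Psme2b* and *Psme2* can be split between them by their near identity, so both values are uncertain. *Psme2b* also overlaps *9930111J21Rik1* and *Gm12185* on its own strand. Over the 47 proteasome genes alone the median log2 fold change was -0.04.

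The spread among the proteasome genes was led by the *Bcor*WT libraries. The median difference between 2 libraries, in log2(CPM + 0.5) without its sign, was 0.213 between the *Bcor*ΔE9-10 libraries, 0.363 between the *Bcor*WT libraries and 0.205 to 0.321 for the 4 pairs of different genotype. The same medians over all genes were 0.302, 0.563 and 0.315 to 0.556. *Bcor*WT replicate 2 was the highest library for 18 of the 49 genes (36.7%, beside 34.5% of all genes), and *Bcor*WT replicate 1 the lowest for 20 (40.8%, beside 21.7%). Within the same *Bcor*WT pair, *Psme3* and *Psmc4* were beyond 2-fold apart, and between the *Bcor*ΔE9-10 libraries *Psma8* was. The 49 genes together held 0.485% and 0.441% of the counts in the *Bcor*ΔE9-10 libraries against 0.402% and 0.559% in the *Bcor*WT libraries. With *Gm42418* left out of the totals these became 0.580%, 0.514%, 0.557% and 0.567%, so that the shares of the 2 *Bcor*WT libraries then differed by less than those of the 2 *Bcor*ΔE9-10 libraries.

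**Figure D4:**
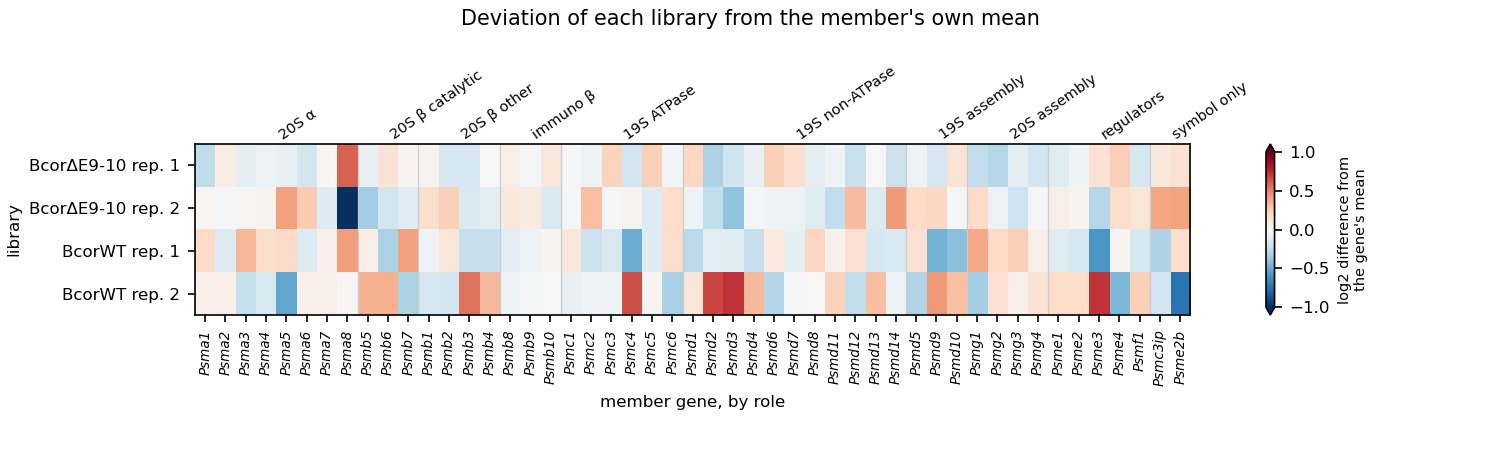
Deviation of each library (rows) from the mean log2 level of each of the 49 genes (columns, by role), in log2 units from blue (below) to red (above). Among the deepest colours are those in the *Bcor*WT replicate 2 row, at *Psmd2*, *Psmd3*, *Psme3* and *Psme2b*, and in the *Psma8* column, whose mean count is 16.8.

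Leaving out *Bcor*WT replicate 1, so that *Bcor*WT replicate 2 alone stood for its genotype and was assumed to vary like the *Bcor*ΔE9-10 libraries, gave 7 of the 49 genes an unadjusted p under 0.05. These were 2 higher in *Bcor*ΔE9-10 (4.08%, beside 11.9% of the genes tested) and 5 lower (10.2%, beside 13.1%), and 0 passed at an adjusted p under 0.05. The higher ones were *Psme2b* (log2 fold change 1.06, unadjusted p = 0.0275) and *Psme4* (0.66, unadjusted p = 0.0447). The lower ones were *Psmd3* (-1.03, unadjusted p = 0.00482), *Psmd2* (-0.96, unadjusted p = 0.00591), *Psmb3* (-0.70), *Psme3* (-0.79) and *Psmc4* (-0.73), with edgeR adjusted p-values of 0.0660 to 0.174. Leaving out *Bcor*WT replicate 2 instead brought *Psmd3* to -0.17, *Psmd2* to -0.17, *Psme4* to 0.19 and *Psme2b* to 0.11, and 0 of the 49 had an unadjusted p under 0.05. The values of these genes rest on which *Bcor*WT library is used.

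Genes of the surrounding pathway were taken from 3 lists. Of 16 proteasome parts and substrate handlers with other symbols, such as the ubiquitin receptor gene *Adrm1*, the deubiquitinase genes *Usp14* and *Uchl5* and the core maturation factor gene *Pomp*, 8 had log2 fold changes above 0 and 8 below, with 0 at an unadjusted p under 0.05. *Adrm1* had 288 and 306 counts in the *Bcor*ΔE9-10 libraries against 186 and 396 in the *Bcor*WT libraries (log2 fold change -0.32, SE 0.32), and *Pomp* had 1145, 843, 543 and 1025 (-0.01, SE 0.35).

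Of 12 regulators of proteasome genes, 4 were above 0 and 8 below, with a median of -0.18 and 0 at an unadjusted p under 0.05. *Nfe2l1*, the factor that raises proteasome genes when the proteasome is inhibited, had 218, 202, 140 and 215 counts and a log2 fold change of -0.15 (SE 0.31). Its relative *Nfe2l2* had 305, 456, 201 and 228 counts and 0.37 (SE 0.34). *Irf1*, an interferon-induced factor of the immunoproteasome genes, had 743, 805, 364 and 1144 counts and -0.26 (SE 0.40). Of 10 genes that supply or load MHC class I peptides, 4 were above 0 and 6 below, with a median of -0.18 and 0 at an unadjusted p under 0.05. *Tapbp*, which encodes the loading factor tapasin, had 569, 714, 245 and 1626 counts (log2 fold change -0.77, SE 0.59), with the *Bcor*WT libraries at both ends. Leaving out *Bcor*WT replicate 1 raised the number at an unadjusted p under 0.05 in each of these lists, as it did over all genes. It also did so in the planned gene list that is not reported here. In that fit *Bcor*WT replicate 2 alone stood for its genotype. Without any other library the counts were those given above.

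Processed pseudogenes can take reads of a proteasome gene, and 9 of the 838 annotated pseudogenes in the table had a transcript that matched a member best, at 90% identity or more over at least 100 bases. *Gm13835* is identical to *Psma3* over 685 bases and had 35, 60, 21 and 38 counts against 302, 371, 258 and 269 for *Psma3*, that is, 11.4% of their sum. The pseudogenes of *Psma5* were *Gm8394*, with 40 and 24 counts in the *Bcor*ΔE9-10 libraries against 14 and 6 in the *Bcor*WT libraries, and *Gm12989*, with 31, 21, 13 and 2. Their counts were lowest in the *Bcor*WT libraries while their CPM overlapped between genotypes, and neither passed the test (unadjusted p = 0.171 and 0.242). With these counts added, the log2 fold change of *Psma5* went from 0.31 to 0.38 (SE 0.37). The other 6 pseudogenes matched *Psma4*, *Psmb1*, *Psmb3* (by 2 of them), *Psmd2* and *Psme1*, and adding all 9 changed no call.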

How the data were processed

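Quant-seq 3′ mRNA libraries of sorted KL cells, 2 *Bcor*ΔE9-10 and 2 *Bcor*WT, were analysed. For the deposited table the authors discarded low-quality reads, removed primer-biased and poly-A ends with cutadapt, aligned to mm10 with HISAT2, and counted reads per gene with featureCounts of Subread. The deposited values are unnormalized counts for *Bcor*ΔE9-10 replicate 1 and for *Bcor*WT replicate 2. In the other 2 libraries the deposited values are whole except for 1 gene, *Gm4430*, and were taken for estimated counts and rounded. The sources used here describe the same counting for all libraries. How genes were selected for the table is not given in the sources used here.

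The fit used edgeR 4.0.16 in R 4.3.3 on all genes (filterByExpr, which removed 0 genes, TMM scaling, quasi-likelihood F test, prior count 0.125, Benjamini-Hochberg adjustment). The study's tool, limma (voom, 3.58.1), and DESeq2 1.42.0 were alternatives. The SE was the log2 fold change divided by the square root of F. CPM are TMM-scaled and not per length. Shares were compared with exact permutation tests (scipy 1.17.1). Positions are GENCODE M21 on GRCm38. Pseudogenes were matched with blastn 2.17.0, and promoters came from RefSeq (GRCm38.p6). Replicate numbers come from the labels, and same-numbered libraries did not deviate together (correlation -0.0945), so no block was used.

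The genes, roles and lists were chosen with earlier results of these data known. Named were *Psmb5* to *Psmb10*, any member with an unadjusted p under 0.05, the 5 highest and 5 lowest changes, the 2 highest and 2 lowest mean counts, and genes of the pathway lists, not the markers, with an unadjusted p under 0.05. A planned gene list is not reported here. Others show a role and were picked with their values known. Alternatives were other scaling and filters, the replicate block, other tests, a prior count of 2, added pseudogene counts and each library left out.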

Additional observations from a re-analysis of the deposited data

How the results depend on the processing

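Of 372 values recomputed under an alternative, 345 were counted as unmoved. They stayed on the same side of the threshold, within the spread or, for a count, close to the reported value. Such a value could still move far or turn sign. Without *Bcor*WT replicate 2 the log2 fold change of *Psmd3* went from -0.66 to -0.17. The log2 ratio of the summed non-catalytic β subunits went from -0.11 to 0.12 there. Leaving out the filter, which removed 0 genes, repeated the main fit, and no matched pseudogene belonged to a catalytic pair. Those values could not move. The number of proteasome genes called was 0 under every alternative, while the calls over all genes went from 2 to 5 with at least 10 counts in every library, 4 with limma-voom, 43 with DESeq2, and 6, 34, 596 and 30 without *Bcor*ΔE9-10 replicate 1, *Bcor*ΔE9-10 replicate 2, *Bcor*WT replicate 1 and *Bcor*WT replicate 2. With the replicate block the median log2 fold change of the 49 genes was -0.03 and 0 of them were called, against 14 calls over all genes. Requiring 10 counts left out *Psma8*. With each library left out, the number of genes whose genotypes did not overlap was 23 to 40 in place of 15 (46.9% to 81.6% of them, beside 58.2% to 81.4% of all genes), as fewer libraries make overlap rarer. The number with an unadjusted p under 0.05 was 0 to 7, with 7 reached without *Bcor*WT replicate 1, and the median log2 fold change was -0.065 to 0.090, with 0.090 reached without *Bcor*WT replicate 2. The cause was not tested.

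Single-gene values were recomputed for the 18 genes of the naming rule, and none passed the test under any alternative. Of these 18, the 8 that changed sign did so when a library was left out, with ranges of -0.27 to 0.17 for *Psmf1*, -0.37 to 0.31 for *Psmb6*, -0.16 to 0.10 for *Psmb10*, -1.51 to 0.41 for *Psma8*, -0.46 to 0.27 for *Psmb7*, -0.0077 to 0.71 for *Psma5*, -0.70 to 0.077 for *Psmb3* and -0.38 to 0.18 for *Psmd4*. Of the others, *Psmb5* ranged from -0.56 to -0.26, *Psmc2* from 0.074 to 0.43, *Psmc3ip* from 0.36 to 0.65 and *Psmg2* from -0.46 to -0.23. The *Psmb9* share differed by -3.61 to 7.26 percentage points and the *Psmb10* share by -5.07 to 7.01. Without TMM factors the log2 ratio of summed levels was 0.05 for the α ring, 0.15 for the immunoproteasome subunits and 0.15 for the ATPases, and with a library left out it turned sign for the α ring (up to 0.04), the non-catalytic β subunits (up to 0.12), the 19S base chaperones (down to -0.09) and the activators and regulators (down to -0.13). *Psma8* and *Psmf1* had the lowest mean counts of the 49 genes, and 2 libraries a genotype limited every test.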
